A study of Mus musculus with 12 samples.

Results

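Transcripts of cholesterol synthesis and of the SREBP2 pathway were followed in mouse bone marrow-derived macrophages, cells differentiated in a dish from marrow progenitors. The set held 26 genes, chosen by name from the 32285 genes of the count table: 20 enzymes that lead from acetyl-CoA to cholesterol or to its prenyl diphosphate intermediates, 4 genes of sterol sensing and SREBP2 processing (Srebf2, Scap, Insig1 and Insig2) and 2 further targets of SREBP2 (Stard4 and Tmem97). It does not hold every enzyme of the route. The rule that lists them uses no measured value, though it was written with earlier results of these data known.

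All cells were wild type (WT). For 16 h they received either plain medium (M) or 5 mM of itaconic acid (IA), methylsuccinic acid (MetSA) or malonic acid (MA), each diluted from a 50 mM stock. Each of the 4 groups had 3 biological replicates, giving 12 poly(A) RNA-seq libraries. The sources used here do not say whether the replicates came from separate animals or cultures, so p-values measure the spread between these samples, which may be in part technical. Itaconic acid is methylenesuccinic acid, methylsuccinic acid is its saturated form, in which the methylene double bond is replaced by a methyl group, and malonic acid is a shorter dicarboxylic acid.

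Cells make cholesterol from acetyl-CoA through mevalonate, isoprenoid diphosphates, squalene and lanosterol. The transcription factor SREBP2, encoded by Srebf2, is held in the endoplasmic reticulum membrane with its escort Scap while sterols are plentiful, bound there by the Insig proteins. When sterols run low, Scap carries SREBP2 to the Golgi, where proteases release its active part, which enters the nucleus and binds sterol regulatory elements near genes of the whole route, often beside sites for the factors NF-Y and Sp1. Macrophages balance this synthesis against the cholesterol they take in with lipoproteins and dead cells.

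Promoter windows of 250 bases before to 50 bases after the transcription start were at hand from RefSeq (GRCm38.p6) for 22 of the 26 genes. Each was searched on both strands for 4 motifs: TCACNCCAC, a form of the sterol regulatory element, its core CACNCCAC, which lies within it, CCAAT, the letters bound by NF-Y, and GGGCGG, those bound by Sp1. CCAAT was found in 19 of the 22 genes (86.4%), against 41.1% of the 27025 genes with a window, and GGGCGG likewise in 19 (86.4%), against 38.2%. The longer sterol element was found in 1 gene, Hmgcs1 (4.55%, against 1.44%), and its core in Acat2, Hmgcs1 and Insig1 (13.6%, against 7.12%). Some genes have more than 1 window, and a match in any of them counted. By window, CCAAT was in 67.9% of the members' 28 windows, against 37.4% of all 32851. GGGCGG was in 78.6%, against 35.7%, the longer sterol element in 3.57%, against 1.24%, and its core in 10.7%, against 6.24%. The 27025 genes include genes with too few counts to be tested here, whereas all 22 members were tested, so these shares are not matched for expression. These matches are a description of letters, with no binding measured here.

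Stretches from within the windows, upstream of the start, are printed for 5 genes that rose with IA (Hmgcs1, Mvd, Hsd17b7, Lss and Insig1) and, for comparison, for 2 that were not called (Insig2 and Ebp). They lie at chr13:119690201-119690320 (plus strand), chr8:122443433-122443522 (minus), chr1:169969246-169969335 (minus), chr10:76531495-76531584 (plus), chr5:28071177-28071296 (plus), chr1:121332610-121332729 (minus) and chrX:8193533-8193622 (minus), in that order. They are written 5′ to 3′ on the gene's strand. Capitals mark TCACNCCAC, CCAAT and GGGCGG or their reverse complements, and all 7 stretches hold at least 1 CCAAT. Insig2 has more than 1 window, and its stretch is from the window farthest upstream. Its other windows hold GGGCGG and no CCAAT. The sterol core of Insig1 lies nearer the start, outside the stretch shown.
Hmgcs1: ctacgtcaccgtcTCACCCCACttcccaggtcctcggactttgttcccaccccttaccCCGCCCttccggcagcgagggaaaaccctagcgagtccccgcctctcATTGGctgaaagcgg
Mvd: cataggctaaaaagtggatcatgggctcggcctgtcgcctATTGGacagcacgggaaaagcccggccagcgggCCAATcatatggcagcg
Hsd17b7: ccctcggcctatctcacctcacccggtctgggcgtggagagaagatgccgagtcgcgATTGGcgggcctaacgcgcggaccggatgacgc
Lss: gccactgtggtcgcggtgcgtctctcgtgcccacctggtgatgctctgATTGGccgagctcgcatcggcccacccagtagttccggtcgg
Insig1: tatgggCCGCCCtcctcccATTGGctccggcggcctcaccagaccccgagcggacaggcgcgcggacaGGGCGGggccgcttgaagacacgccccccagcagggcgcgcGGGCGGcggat
Insig2: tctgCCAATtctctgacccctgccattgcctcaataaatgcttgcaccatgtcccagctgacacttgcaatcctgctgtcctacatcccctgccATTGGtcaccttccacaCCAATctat
Ebp: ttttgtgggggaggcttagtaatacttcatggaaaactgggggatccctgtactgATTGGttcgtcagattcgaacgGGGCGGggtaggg

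The libraries held 46892488 to 54252486 counts, and 14113 genes were tested, among them all 26 members, whose counts ran from 267 to 11450 in a library. All 8 macrophage markers examined were at 117.2 CPM (counts scaled to library size) or more in every library, and no lymphocyte, mast cell, erythroid or hepatocyte marker reached 1 CPM. Macrophage markers also differed between groups. Mean Fcgr1 was 307.2 CPM in M, 1748 in IA, 1155 in MetSA and 312.1 in MA. In the same order, Mrc1 was at 826.2, 598.7, 668.6 and 207.1 CPM and Adgre1 at 2628, 2997, 3165 and 1948. Other markers went the other way with MA. Mertk was at 123.3, 162.4, 148.9 and 199.7 CPM and Lyz2 at 17120, 14970, 17510 and 21290. Means of Csf1r, Cd68 and Itgam were also higher in MA than in M. The part of these shifts in the results was not tested. Of the neutrophil markers 5 of 6 reached 1 CPM (highest 26.1), of the stromal markers 4 of 5 (highest 16.0) and of the dendritic cell markers 4 of 5 (highest 5.08). The summed dendritic markers moved with the groups, at 1.67 to 2.75 CPM in M, 6.71 to 7.57 in IA, 2.93 to 4.80 in MetSA and 2.41 to 2.98 in MA, mostly through Xcr1 (means of 0.223, 4.86, 1.97 and 0.443 CPM), and their part in the results was not tested. Mitochondrial transcripts took 0.673% to 0.811% of the counts in IA, 1.146% to 1.356% in M and 1.05% to 1.13% in MA. In MetSA they took 0.759% and 0.833% in replicates 1 and 2 and 1.28% in replicate 3, and the part of that difference in the results was not tested.

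Against M, 20 of the 26 genes rose with IA and none fell, by edgeR's quasi-likelihood test at a Benjamini-Hochberg adjusted p under 0.05. Of all genes tested, 17.9% were called higher and 17.3% lower in that comparison. The median log2 fold change of the 26 was 0.62, against -0.03 over all genes tested. Rises ran from 1.28-fold (Aacs) to 2.66-fold (Idi1), with a median of 1.57-fold, and 5 genes reached 2-fold: Idi1, Cyp51, Fdft1, Fdps and Hmgcs1. In bulk libraries, more cells with a transcript and more of it per cell cannot be told apart. The 3 IA and 3 M values did not overlap for 20 of the 26 genes, against 47.7% of all genes tested in either direction.

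With MetSA, 16 of the 26 rose and none fell, where 12.6% of all genes tested were called higher and 8.53% lower. The MetSA and M values did not overlap for 18 genes, against 33.7% of all genes. The median log2 fold change was 0.33 against -0.01 over all genes, and the called rises ran from 1.19-fold (Ggps1) to 1.70-fold (Idi1). With MA, 7 rose and none fell, where 10.1% of all genes were called higher and 10.1% lower, and the median log2 fold change was 0.09 against -0.02. Without MA replicate 2 that median was 0.14. The MA and M values did not overlap for 9 genes, against 35.6% of all genes. Called rises with MA ran from 1.14-fold (Ggps1) to 1.36-fold (Sc5d). These 3 comparisons share the M libraries and are given side by side. By gene, 7 were called higher with all 3 compounds, 9 with IA and MetSA, 4 with IA alone (Aacs, Acat2, Pmvk and Lss) and 6 with none (Mvk, Tm7sf2, Ebp, Scap, Insig2 and Tmem97). The shares of all genes tested with these combinations were not determined.

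**Figure D1:**
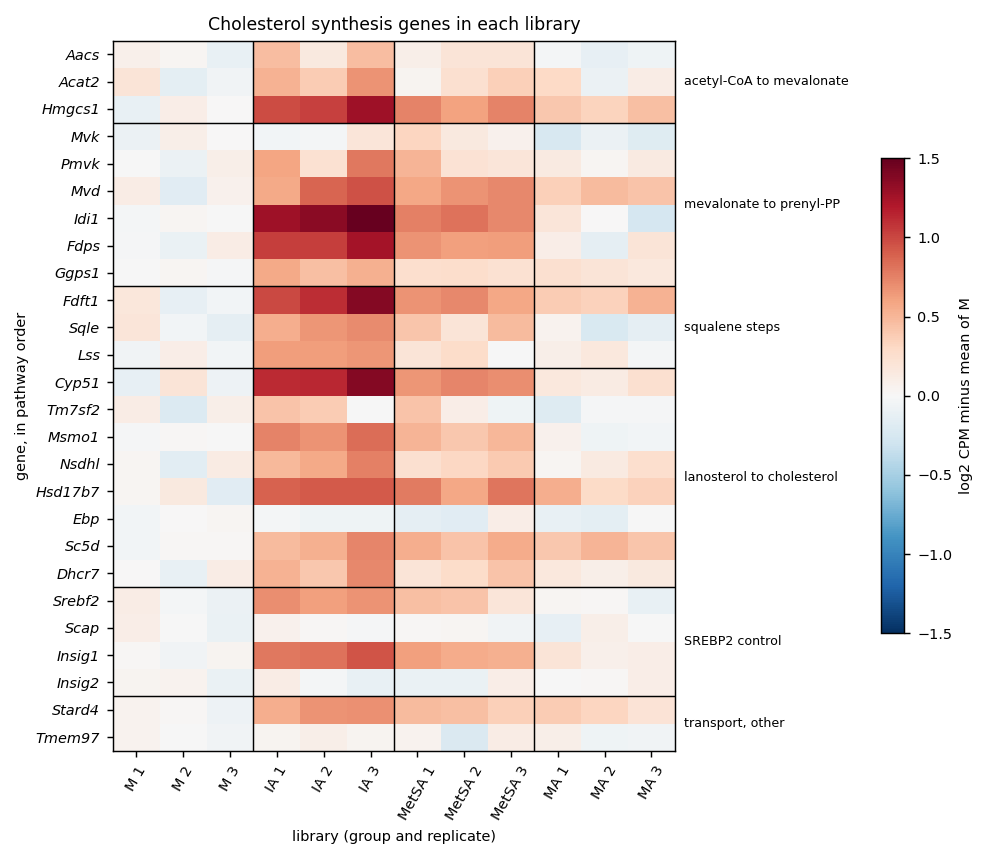
Log2 CPM of each of the 26 genes in each of the 12 libraries, as the difference from the mean of the 3 M libraries, with genes ordered by pathway step and red for values above the M mean. The columns of IA show the largest differences along most of the route, those of MetSA smaller ones and those of MA the smallest, while genes such as Ebp, Scap and Insig2 show little difference in any column.

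**Figure D2:**
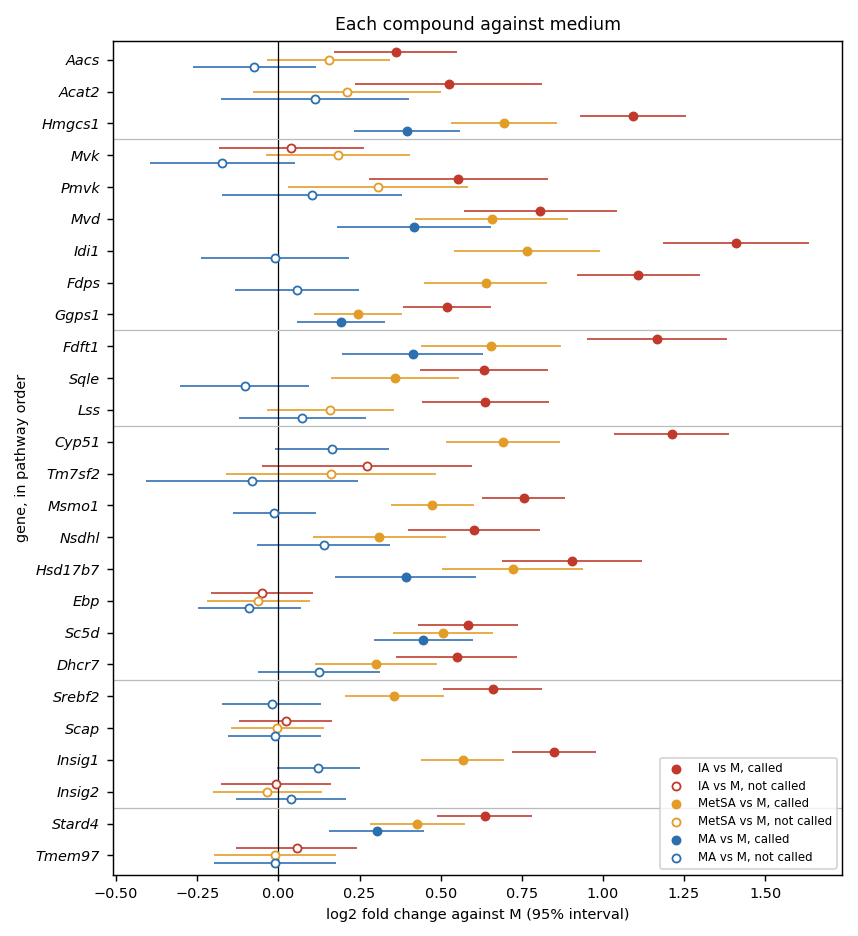
Log2 fold change against M of the 26 genes for IA, MetSA and MA, with 95% intervals from the edgeR fit and filled points for an adjusted p under 0.05. In all, 20 genes are called higher with IA, 16 with MetSA and 7 with MA, and none is called lower.

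All 3 enzymes of the first steps were higher with IA, and only Hmgcs1 was called with MetSA and with MA. Of all genes tested, 17.9% were called higher with IA, 12.6% with MetSA and 10.1% with MA. Counts of single steps, here and below, are of few genes and are descriptions only. Hmgcs1 (chromosome 13, 119690379 to 119708260, plus strand) makes HMG-CoA, the precursor of mevalonate, and its promoter holds the sterol element printed above. Its level was 50.5, 58.1 and 54.8 CPM in the 3 M libraries, 106.8, 111.1 and 131 in IA, 91.3, 82.6 and 90.9 in MetSA and 72.1, 68.6 and 74.5 in MA. The 4 groups did not overlap for this gene, and the order was IA, MetSA, MA, M. The log2 fold changes against M were 1.09 (SE 0.08, edgeR adjusted p = 1.73e-09) with IA, 0.70 (adjusted p = 1.63e-06) with MetSA and 0.40 (adjusted p = 0.000879) with MA. Hmgcs1 shares 557 exon bases with the antisense gene Gm48342, and 8.22% of its 100-base stretches occur in other genes. Whether counting used strand is not given, and the part of this overlap in the Hmgcs1 values was not tested. Acat2, which joins acetyl-CoA units, had 6.34 ± 0.80 CPM in M and 9.11 ± 0.92 in IA (mean ± SD, n = 3 libraries here and below), a log2 difference of 0.52 (edgeR adjusted p = 0.00559). Of the Acat2 transcript, 28.9% of 100-base stretches also occur in other genes, most often in its near copy Acat3, so this value is uncertain. Acat3 itself had group means from 0.0274 CPM (IA) to 0.154 (M). Aacs, which activates acetoacetate for lipid synthesis, rose from 20.2 ± 1.3 to 26 ± 3.2 CPM with IA.

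From mevalonate to the prenyl diphosphates, 5 of 6 genes rose with IA, 4 with MetSA and 2 with MA. The shares called higher over all genes tested were 17.9%, 12.6% and 10.1%. Idi1 (chromosome 13, 8885501 to 8892451, plus strand), the isomerase that makes dimethylallyl diphosphate, showed the largest rise of the set. It was at 9.99, 10.3 and 10.2 CPM in M, 24.5, 25.97 and 30.6 in IA, 17.2, 18.0 and 16.7 in MetSA and 11.5, 10.2 and 8.54 in MA. IA and MetSA thus lay apart from M and from each other, whereas the MA values spread on both sides of those of M. The log2 fold changes were 1.41 (SE 0.11, edgeR adjusted p = 4.56e-09), 0.77 (adjusted p = 2.57e-05) and -0.01 (adjusted p = 0.967) for IA, MetSA and MA. Fdps, which makes farnesyl diphosphate, had 20.4 ± 1.6 CPM in M, 43.9 ± 3.8 in IA, 31.7 ± 0.7 in MetSA and 21.2 ± 2.5 in MA. Idi1 and Fdps share 21.9% and 21.4% of their 100-base stretches with other genes, most often the predicted genes Gm13502 and Gm43738, which makes both uncertain.

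Mvd, which decarboxylates mevalonate diphosphate, rose with all 3 compounds. It was at 9.14, 7.52 and 8.87 CPM in M, 12.6, 15.5 and 16.5 in IA, 12.7, 13.5 and 14.0 in MetSA and 10.9, 11.8 and 11.4 in MA. No compound's values overlapped those of M, and the IA and MetSA values overlapped each other. The rise with MA was 0.42 on the log2 scale (SE 0.11, edgeR adjusted p = 0.0117), and its call was lost without M replicate 2.
Ggps1, which makes the geranylgeranyl diphosphate used to anchor small GTPases, was at 27.7, 28.6 and 27.4 CPM in M, 41.4, 38.0 and 40.5 in IA, 33.1, 33.4 and 32.7 in MetSA and 32.9, 31.8 and 31.1 in MA. MetSA and MA overlapped, and both lay between M and IA. Its rise with MA (log2 0.19, edgeR adjusted p = 0.0403) was not called without the filter on low counts (adjusted p = 0.154) or in a fit of MA and M alone (adjusted p = 0.053), and the call was lost without any single library of M or MA (adjusted p from 0.0564 to 0.145).
Pmvk, the phosphomevalonate kinase, rose with IA from 8.64 ± 0.55 to 12.7 ± 2.4 CPM and was not called with MetSA (10.7 ± 1.4).
Mvk, the mevalonate kinase at the head of these steps, was not called with any compound. Its values were 10.1, 11.3 and 10.7 CPM in M, 10.4, 10.5 and 12.1 in IA, 13.4, 11.8 and 11.2 in MetSA and 9, 10.1 and 9.39 in MA. IA and MetSA overlapped M, and the MA values lay at or just below the lowest M value. The 95% interval of the log2 difference between IA and M ran from -0.18 to 0.26.

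The 3 genes that make and cyclize squalene were all called higher with IA, against 17.9% of all genes tested. Fdft1 (chromosome 14, 63145150 to 63179578, minus strand), squalene synthase, commits farnesyl diphosphate to sterols. It was at 14.7, 11.9 and 12.7 CPM in M, 26, 28.3 and 33.9 in IA, 20.9, 21.4 and 19.5 in MetSA and 17.0, 16.6 and 18.7 in MA. The groups did not overlap, again in the order IA, MetSA, MA, M. The log2 fold changes were 1.17 (SE 0.10, edgeR adjusted p = 3.64e-08), 0.66 (adjusted p = 9.5e-05) and 0.41 (adjusted p = 0.00696). Fdft1 shares 774 exon bases with Ctsb on the other strand, and whether counting used strand is not given, so reads of Ctsb may be in these values. Ctsb, a lysosomal protease, was at 13460 CPM in M and was higher by 0.21 on the log2 scale in IA, 0.11 in MetSA and 0.18 in MA, of which the first was called (edgeR adjusted p = 0.0201), and its part in the Fdft1 values was not tested.
Sqle, squalene epoxidase, is a rate-limiting enzyme of the later route and rose from 40.1 ± 4.6 CPM in M to 62.2 ± 3.5 in IA and 51.5 ± 5.3 in MetSA, with 37.3 ± 3.8 in MA. Lss, which closes the rings to lanosterol, had 13.7 ± 0.9 CPM in M, 21.3 ± 0.3 in IA, 15.3 ± 1.5 in MetSA and 14.4 ± 1.0 in MA. For Lss the rise with IA alone was called, by 0.64 on the log2 scale (edgeR adjusted p = 2.07e-05).

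Of the 8 genes that turn lanosterol into cholesterol, 6 rose with IA and with MetSA, and 2 with MA. Over all genes tested, 17.9%, 12.6% and 10.1% were called higher with IA, MetSA and MA. Cyp51 (chromosome 5, 4081145 to 4104746, minus strand), the lanosterol demethylase, was at 34.0, 42.6 and 35.3 CPM in M, 80.9, 81.6 and 96.8 in IA, 59.0, 61.5 and 60.3 in MetSA and 41.4, 40.3 and 43.9 in MA. IA and MetSA lay apart from all other groups, while MA overlapped M. The log2 fold changes were 1.21 (SE 0.08, edgeR adjusted p = 1.25e-09), 0.69 (adjusted p = 5.05e-06) and 0.17 (adjusted p = 0.194), and the last was called without M replicate 2 (adjusted p = 0.0282).
Msmo1, the methyl sterol oxidase, had 70.2 ± 0.8 CPM in M, 118.5 ± 6.7 in IA, 97.5 ± 3.8 in MetSA and 69.5 ± 3.3 in MA.
Hsd17b7, a ketosteroid reductase that acts with Nsdhl on the demethylated rings, was at 9.87, 10.7 and 8.56 CPM in M, 17.8, 18.4 and 18.3 in IA, 16.6, 14.5 and 16.9 in MetSA and 14.1, 11.8 and 12.3 in MA. All 4 groups were apart. Its rise with MA was 0.39 (SE 0.10, edgeR adjusted p = 0.0104), and the call was lost without M replicate 3 and without MA replicate 1.
Sc5d, the desaturase near the end of the route, differed least between the compounds among the genes called with all 3. It was at 29.1, 30.5 and 30.5 CPM in M, 41.8, 43.6 and 49.8 in IA, 43.8, 40.4 and 44.0 in MetSA and 39.7, 43.0 and 40.3 in MA. The compounds' values overlapped each other, and none overlapped M. The log2 fold changes were 0.58 (edgeR adjusted p = 3.45e-06), 0.51 (adjusted p = 3.56e-05) and 0.45 (SE 0.07, adjusted p = 0.000149).

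Nsdhl and Dhcr7, a sterol dehydrogenase and the reductase of the last step, rose with IA by 0.60 and 0.55 on the log2 scale. Their rises with MetSA were 0.31 (edgeR adjusted p = 0.0281) and 0.30 (adjusted p = 0.021), and neither call was stable: that of Nsdhl was lost in a fit of MetSA and M alone and without M replicate 1, M replicate 2, MetSA replicate 2 or MetSA replicate 3, and that of Dhcr7 without M replicate 1, M replicate 2 or MetSA replicate 3.
Tm7sf2, a sterol reductase, had 6.16, 4.95 and 6.08 CPM in M, 7.67, 7.42 and 5.68 in IA, 7.66, 6.13 and 5.44 in MetSA and 4.98, 5.62 and 5.64 in MA. It was among the least abundant of the set. Each compound's values overlapped those of M, while the IA values lay just above those of MA (log2 0.35, edgeR adjusted p = 0.0863), a difference called without IA replicate 3 (adjusted p = 0.0292) and in a fit of IA and MA alone (adjusted p = 0.0476). Of its 100-base stretches, 7.92% occur in other genes, most often in the neighbouring gene Vps51, whose exons it overlaps.
Ebp, the sterol isomerase of the late steps, was at 32.6, 33.7 and 34.0 CPM in M, 32.8, 32.02 and 32.02 in IA, 30.5, 29.8 and 35.7 in MetSA and 30.8, 30.2 and 33.3 in MA. All 4 groups overlapped, and the log2 difference between IA and M was -0.05, with a 95% interval from -0.21 to 0.11.

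Among the regulators, Srebf2 and Insig1 rose with IA and MetSA, and Scap and Insig2 were not called with any compound. Srebf2 (chromosome 15) encodes SREBP2 and is itself a target of it. It was at 159.7, 145.6 and 139.8 CPM in M, 239.7, 227 and 236.5 in IA, 202.6, 199.2 and 168 in MetSA and 151.2, 150.2 and 137.4 in MA. IA lay above every other library, MA lay within or next to M, and MetSA replicate 3 stood closer to M than its fellow replicates. The log2 fold changes were 0.66 (SE 0.07, edgeR adjusted p = 6.85e-07), 0.36 (adjusted p = 0.00128) and -0.02 (adjusted p = 0.897).
Insig1, which retains the Scap and SREBP2 complex and is a sensitive SREBP target, was at 62.1, 59.5 and 63.3 CPM in M, 106.4, 108.1 and 118.6 in IA, 94.1, 90.6 and 89.4 in MetSA and 70.6, 64.9 and 65.9 in MA. Its groups did not overlap, with MA just above M. The log2 fold changes were 0.85 (SE 0.06, edgeR adjusted p = 2.29e-09), 0.57 (adjusted p = 1.17e-06) and 0.12 (adjusted p = 0.186).
Insig2, the second retention protein, is not a classic SREBP target. It was at 30.2, 30.5 and 27.3 CPM in M, 31.7, 28.7 and 27.1 in IA, 27.3, 27.3 and 31.3 in MetSA and 29.2, 29.8 and 31.4 in MA. The groups overlapped throughout, and the 95% interval of the log2 difference between IA and M ran from -0.18 to 0.16.
Scap, the escort, had 65.8, 61.1 and 57.2 CPM in M, 64.1, 62.2 and 60.6 in IA, 62.3, 62.4 and 59.0 in MetSA and 56.2, 65.3 and 61.2 in MA. Its groups overlapped, with an interval for IA against M from -0.12 to 0.17. Per kilobase of exon in M, Srebf2 (20.7 CPM per kb) and Insig1 (19.9) had the highest levels of the 26 genes and Lss (1.27) and Tm7sf2 (1.30) the lowest.

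**Figure D3:**
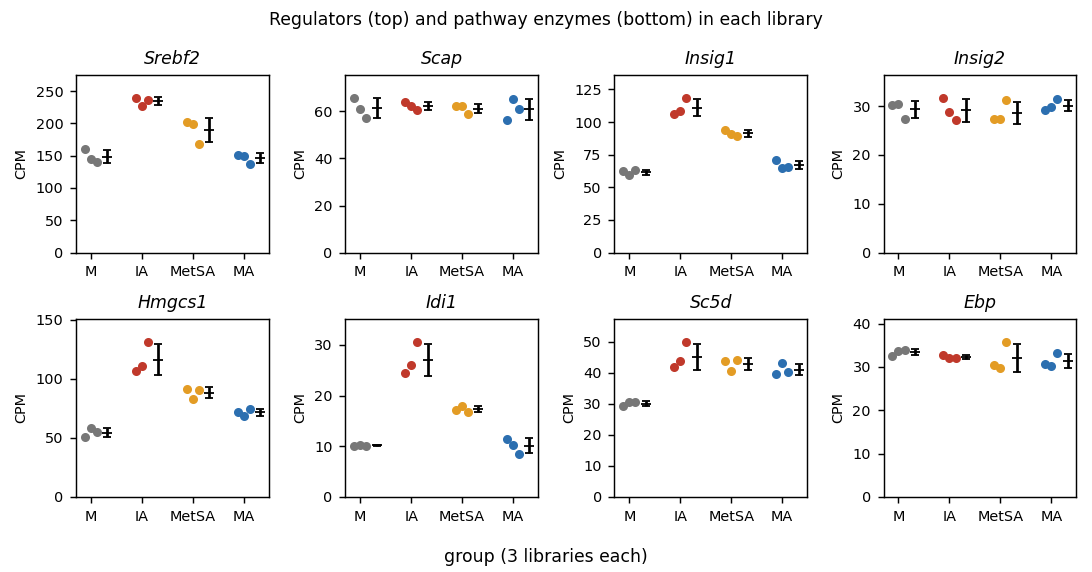
CPM of the regulators Srebf2, Scap, Insig1 and Insig2 (top row) and the enzymes Hmgcs1, Idi1, Sc5d and Ebp (bottom row) in each library (points) with the group mean and SD (n = 3 libraries), on axes that start at 0. Srebf2, Insig1, Hmgcs1 and Idi1 are highest in IA and next in MetSA, Sc5d is similarly high with all 3 compounds, and the points of Scap, Insig2 and Ebp overlap in all 4 groups.

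The other targets behaved differently from each other. Stard4, a carrier of sterol between membranes, was at 34.9, 34.1 and 31.8 CPM in M, 49.0, 53.8 and 53.9 in IA, 46.8, 45.9 and 43.1 in MetSA and 43.7, 42.1 and 38.6 in MA. All compounds lay above M. Its log2 fold changes were 0.64 (SE 0.07, edgeR adjusted p = 6.80e-07), 0.43 (adjusted p = 0.00014) and 0.30 (adjusted p = 0.00381).
Tmem97, which binds the sterol transporter Npc1 and responds to sterol levels in other cells, was at 20.5, 19.7 and 19.0 CPM in M, 20.3, 20.9 and 20.4 in IA, 20.5, 17.0 and 21.3 in MetSA and 21.0, 18.8 and 19.0 in MA. Its groups overlapped, and the interval for IA against M ran from -0.13 to 0.24. Part of its sequence (13.8%) is shared with other genes, most often Gm5809.

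The compounds were then compared with each other at the same dose and time, in 3 pairs. The means of the 3 compounds fell in the order IA, MetSA, MA for 23 of the 26 genes, and with M last for 15. The share of all genes tested with either order was not determined. The 23 include Tm7sf2, Ebp, Sc5d and Scap, for which no pair of compounds was called. IA was higher than MetSA for 10 genes and lower for none, where 3.97% of all genes tested were called higher and 2.15% lower. The values of the groups did not overlap for 15 genes, against 25.8% of all genes. The median log2 difference was 0.26, against -0.02 over all genes. The largest differences were those of Idi1 (0.64, edgeR adjusted p = 0.00112), Cyp51 (0.52, adjusted p = 0.00104) and Fdft1 (0.51, adjusted p = 0.00511). IA replicate 3 was the highest of the IA libraries for 18 of the 26 genes. Without it 6 genes were called, where 320 of all 14478 genes tested were called higher. The calls of Srebf2 (0.30, adjusted p = 0.0174), Insig1 (0.28, adjusted p = 0.00918), Msmo1 (0.28, adjusted p = 0.00892) and Ggps1 (0.27, adjusted p = 0.0161) were those lost. Srebf2 was also not called without IA replicate 1 or without MetSA replicate 3, and Ggps1 not without IA replicate 1.

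IA was higher than MA for 19 genes and lower for none, where 17.8% of all genes were called higher and 16.8% lower, with a median of 0.44 against -0.03. Values did not overlap for 21 genes, against 49.6% of all genes. Idi1 (1.42), Fdps (1.05) and Cyp51 (1.05) exceeded 2-fold. MetSA was higher than MA for 10 genes and lower for none, where 14.7% of all genes were called higher and 11.6% lower. Values did not overlap for 15 genes, against 38.8% of all genes. The median was 0.23 against -0.01, and the largest difference was that of Idi1 (0.78, edgeR adjusted p = 1.23e-05). With p-values adjusted over all genes of the 3 pairs together, 13, 19 and 10 genes were called for IA over MetSA, IA over MA and MetSA over MA. Of all 14113 genes tested, 885, 2364 and 2038 were called higher in the same way. Some calls rested on single libraries. For IA over MA, that of Acat2 was lost without IA replicate 1 or 3 or MA replicate 2 or 3, and those of Pmvk and Mvd without IA replicate 3. For MetSA over MA, that of Hsd17b7 was lost without MetSA replicate 1 or 3 or MA replicate 2 or 3.

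All 3 steps of that order were called for 7 genes: Hmgcs1, Idi1, Fdps, Cyp51, Msmo1, Srebf2 and Insig1. For Msmo1, Srebf2 and Insig1 the step from MetSA to IA was not called without IA replicate 3. Shares of all genes tested with these combinations of calls, here and below, were not determined. For Ggps1, Fdft1 and Lss, IA was above both other compounds and MetSA was not called against MA. For Sqle and Hsd17b7, IA and MetSA were both above MA and were not called against each other. IA over MetSA was called for Sqle with DESeq2 (adjusted p = 0.0488), with a replicate block (0.0364), without the filter on low counts (0.0161) and with the joint adjustment (0.0415). IA was above MA alone for 7 genes (Aacs, Acat2, Pmvk, Mvd, Nsdhl, Dhcr7 and Stard4). Among these, IA over MetSA was called for Nsdhl and Stard4 with DESeq2, with a replicate block and with the joint adjustment (adjusted p from 0.0300 to 0.0398 and from 0.0373 to 0.0483), and for Dhcr7 with the block (0.0392). For Mvk the single call was MetSA over MA (0.35, edgeR adjusted p = 0.0171), which was lost without MetSA replicate 1, MA replicate 1 or MA replicate 3. No pair was called for Tm7sf2, Ebp, Sc5d, Scap, Insig2 and Tmem97. For Sc5d the 95% intervals were -0.08 to 0.23 for IA over MetSA, -0.01 to 0.29 for IA over MA and -0.09 to 0.21 for MetSA over MA, which leaves differences of that size possible.

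**Figure D4:**
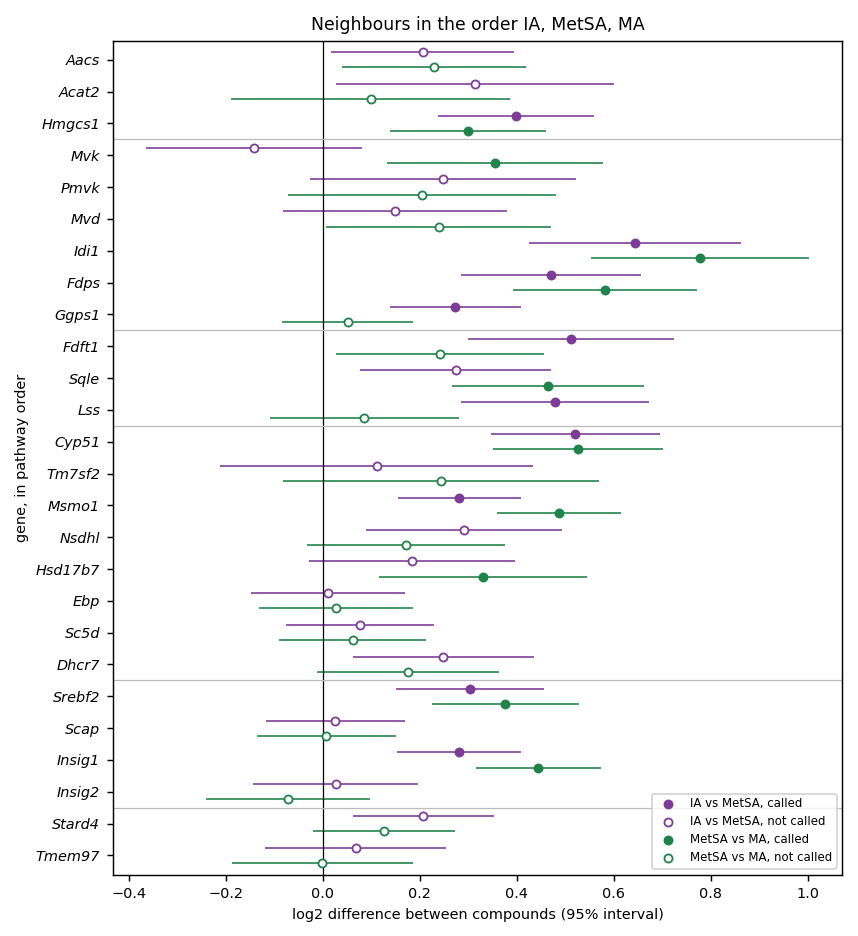
Log2 differences of the 26 genes (vertical axis, in pathway order) between neighbours in the order IA, MetSA, MA: IA over MetSA (purple) and MetSA over MA (green), with 95% intervals from the edgeR fit, filled where the adjusted p is under 0.05. Each comparison has 10 filled points, and both are filled for 7 genes, among them Hmgcs1, Idi1 and Cyp51.

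The mean of the 26 log2 levels, set to 0 in M on average, summarised each library. It was 0.03, -0.01 and -0.01 in M, 0.58, 0.56 and 0.69 in IA, 0.38, 0.34 and 0.37 in MetSA and 0.14, 0.09 and 0.11 in MA. The 4 groups did not overlap, and MetSA replicate 3, with the high mitochondrial share, lay between the other MetSA libraries. The summed level of the 26 genes was 813.4 ± 18.1 CPM in M, 1288 ± 64 in IA, 1063 ± 21 in MetSA and 870.1 ± 13.9 in MA, or 1.58, 1.31 and 1.07 times that of M.

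**Figure D5:**
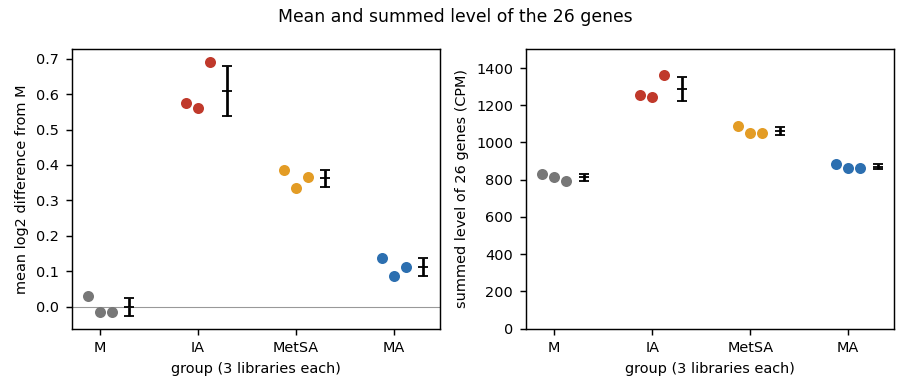
Left, mean log2 level of the 26 genes above the M mean in each library (points); right, their summed level in CPM, on an axis from 0. Bars are the group mean and SD (n = 3 libraries). On the left, IA lies at 0.56 to 0.69, MetSA at 0.34 to 0.38, MA at 0.09 to 0.14 and M at -0.01 to 0.03.

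Genes next to the pathway were counted from 5 further lists. Of all genes tested, 17.9% were called higher and 17.3% lower with IA. The counts of these short lists are descriptions only. Of 10 genes of SREBP proteolysis and sterol-regulated degradation, 1 rose and 1 fell with IA, with a median log2 fold change of -0.04. Rnf139, a ubiquitin ligase of the endoplasmic reticulum that responds to sterols, rose from 36.5 ± 2.8 CPM in M to 63.0 ± 1.3 in IA (log2 0.79, edgeR adjusted p = 2.66e-08) and 51.2 ± 2.5 in MetSA, with 38.2 ± 1.6 in MA. Mbtps1, the first protease that cuts SREBP in the Golgi, fell by 0.28 with IA (adjusted p = 0.00162). Srebf1, the gene of SREBP1, was not called with IA (-0.04) and fell by 0.22 with MA (adjusted p = 0.0201).

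Of 13 genes that use mevalonate products outside sterols, 2 rose and 1 fell with IA, against 17.9% and 17.3% of all genes tested. Coq2, which attaches the side chain of coenzyme Q, rose from 21.3 ± 0.8 CPM to 33.3 ± 2.5 in IA and 26.9 ± 2.1 in MetSA and fell to 17.2 ± 0.5 in MA. Pggt1b, a subunit of the geranylgeranyl transferase, rose by 0.35 with IA, and Fnta, the alpha subunit shared by the prenyl transferases, fell by 0.24.

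Among 11 genes of fatty acid synthesis under SREBP1, 3 rose and 1 fell with IA, 1 rose and 4 fell with MetSA and 2 rose and 2 fell with MA. Of all genes tested, 17.9% were called higher and 17.3% lower with IA, 12.6% and 8.53% with MetSA and 10.1% and 10.1% with MA. Acss2, which makes acetyl-CoA from acetate and is a target of both SREBPs, rose from 6.80 ± 0.61 CPM to 17.4 ± 2.9 in IA (log2 1.35, edgeR adjusted p = 3.33e-08) and 13.0 ± 0.5 in MetSA, with 6.41 ± 0.15 in MA. Scd2, a desaturase, rose by 0.61 with IA, and Elovl5, an elongase, fell by 0.31. Fasn, the fatty acid synthase, was not called with IA (-0.20) and fell by 0.42 with MetSA.

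Of 6 oxysterol and sterol ester enzymes, 5 were tested, and none was called with IA, where 17.9% of all genes were called higher and 17.3% lower. Ch25h, which makes 25-hydroxycholesterol, was at 1.70 ± 0.29 CPM in M and 2.70 ± 0.10 in IA (log2 0.66, edgeR adjusted p = 0.0599). Soat1, which esterifies cholesterol, rose by 0.46 with MA, and Cyp27a1, which makes 27-hydroxycholesterol, fell by 0.70 with MA. Of 5 genes of sterol entry and lysosomal export, 1 rose with IA. This was Npc2, the soluble lysosomal cholesterol carrier, at 1033 ± 77 CPM in M, 2357 ± 138 in IA, 2024 ± 240 in MetSA and 1227 ± 21 in MA. Its membrane partner Npc1 was not called with IA (-0.03) and rose by 0.48 with MA.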

How the data were processed

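The authors deposited 1 table of raw integer counts for each gene and library. STAR alignment, counting by featureCounts and build mm10 are named in the submitters' processing notes. Their versions, the annotation and the strand setting were not given in the sources used here. All 12 value columns matched a sample's labels by name. Of counts from 1 to 9, 66.1% were even, so both mates of a pair may have been counted, and a repeat used halved counts.

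Genes were kept by filterByExpr (14113 genes with 99.98% of the counts) and scaled by TMM. One edgeR quasi-likelihood fit of all 4 groups (8 residual degrees of freedom, no covariate) gave 6 comparisons, with Benjamini-Hochberg adjustment over all genes tested and calls at an adjusted p under 0.05. CPM values use TMM library sizes. Coordinates of genes are those of GENCODE M21 on GRCm38, 1-based. Shared sequence is the share of 100-base stretches of a gene's transcripts found in any other gene, on either strand. The gene named beside it is the one most often matched. Exons of Ggps1, Lss and Cyp51 overlap those of a counted gene on the other strand by 257, 381 and 166 bases. Replicates of a group differed by more than sampling noise. The tools were edgeR 4.0.16, DESeq2 1.42.0 and limma 3.58.1 in R 4.3.3. The fitting code was tested on simulated data.

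The members and lists were chosen with earlier results of these data known. Values in every library are given for the gene of each role with the smallest adjusted p for IA against M, for members not called with IA, for members called with MA and for the 4 regulators. From further lists, up to 3 genes with the smallest adjusted p for IA against M and up to 2 called against the list's median were eligible to be named. Srebf1, Fasn and Npc1 were named outside that rule, after their values were seen.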

Additional observations from a re-analysis of the deposited data

How the results depend on the processing

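No call of a member changed for IA against M in 494 alternative values, from other size factors, DESeq2, other filters on low counts, halved counts, only the 2 groups compared, the replicate block and leaving out each library. Over all comparisons, 50 of 3042 values had another sign than reported, none of them called, 39 calls were lost and 15 gained. With a replicate block, 20, 16 and 7 members were higher with IA, MetSA and MA than in M, and 14, 19 and 10 for IA over MetSA, IA over MA and MetSA over MA. Over all 14113 genes tested, calls of higher also grew with the block. They went from 2524, 1785 and 1429 to 2797, 2031 and 1627 against M. Between compounds they went from 560, 2516 and 2080 to 882, 2748 and 2293. Same-numbered libraries deviated together weakly, with 18 correlations from 0.0122 to 0.169, of which 2 were over 0.1. All 12 libraries matched best with their own number. The labels give the same replicate numbers in every group. The stromal marker Col1a1 was highest in replicate 1 and lowest in replicate 2 of every group. It was at 16.0, 5.08 and 8.29 CPM in M, 9.11, 5.75 and 7.43 in IA, 14, 3.04 and 4.84 in MetSA and 14.1, 5.40 and 9.78 in MA. Col1a2 and Col3a1 kept that order in every group, and Pdgfrb and Dcn did not. Whether same-numbered libraries share an origin is not stated in the sources used here and was not tested. The main fit does not use the numbers, and the block fit is given beside it. Leaving out 1 library gave 14 to 16 members higher for MetSA against M, 5 to 7 for MA against M and 6 to 10 for IA over MetSA. Over all genes tested (14441 to 14490), 1389 to 1820, 1079 to 1559 and 320 to 640 were called higher in these comparisons. The median log2 fold change of the members moved between 0.2998 and 0.3675 for MetSA against M, 0.06245 and 0.1404 for MA against M and 0.2036 and 0.2387 for MetSA over MA. Without the 5 members with much shared sequence, chosen after seeing the data, 16, 13 and 6 of the others were higher with IA, MetSA and MA than in M. The shares over all genes tested were 17.9%, 12.6% and 10.1%. Differences near 0 that were not called took either sign. For Insig2 with IA the log2 value was 0.01033 with DESeq2 size factors, 0.0102 by DESeq2, 0.009781 in a fit of the 2 groups alone and -0.07125 to 0.07426 on leaving out 1 library. On leaving out 1 library, Mvk ran from -0.004922 to 0.0831 and Scap from -0.02613 to 0.07476 with IA. With MA, Idi1 ran from -0.1168 to 0.09583 (0.0004769 in the 2 groups alone), Fdps from -0.0158 to 0.1482, Msmo1 from -0.05212 to 0.01031 and Srebf2 from -0.06049 to 0.03648. The cause of these shifts was not tested. The 8-letter sterol core, shorter than the full motif, raised the share of members with a match in any window from 4.55% to 13.6%.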
